A study of Mus musculus with 29 samples.

Results

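Microglia are the resident macrophages of the brain. In the healthy brain they hold a surveying state that depends on TGF-β and CSF1 receptor signals and on transcription factors such as Sall1 and Mef2c, and that is marked by the ADP receptor P2ry12, Siglech and Cx3cr1. After ischaemia they take up debris, divide and produce cytokines, and their surveying-state transcripts are known to decline.

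The comparison described here is of microglia from the brains of 8-10 week old male C57BL/6J mice 2 days after transient middle cerebral artery occlusion (4 libraries) with microglia 2 days after a sham operation (4 libraries). Transient occlusion of this artery is a standard model of focal ischaemic stroke with reperfusion. Members were the cells that the deposited annotation names as microglia, and their counts were summed within each library. They were 13567 of the 29852 cells in these 8 libraries, 10874 from sham and 2693 from stroke brains, in a series of 106977 cells in 29 brain and blood libraries. Each library pooled 4-5 brain hemispheres, per the labels. The tissue was digested with papain in the presence of the transcription blocker actinomycin D, the purinergic blocker Brilliant Blue G and the NMDA receptor blocker AP-5. Cells sorted as CD45 high leukocytes, CD45 intermediate microglia and Ly6c high endothelial cells were then profiled by Drop-seq, a droplet method with a barcode per cell. Levels below are CPM values of a library's summed microglial counts after scaling by edgeR's TMM method. A level is therefore a share of the summed microglial RNA, and fewer cells with a transcript and less of it per cell cannot be told apart in it. The deposited annotation also divides microglia into subtypes, and the groups held different ones: Mg1 and Mg2 made up 83.8-97.0% of sham microglia and 14.4%, 28.7%, 1.72% and 20.0% of stroke microglia in replicates 1 to 4, and Mg4 and Mg5 made up 0.935-3.52% and 78.3%, 64.8%, 98.3% and 72.1%. A change within a subtype and a change in the mix of subtypes cannot be told apart in the sums.

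Microglia made up 68.7-81.5% of the cells in the sham libraries, with 2093-3293 cells each, and 17.5%, 20.8%, 1.68% and 29.5% of the stroke libraries, with 618, 693, 58 and 1324 cells in the order of replicates 1 to 4. That order is kept for every list of 4 values below. The microglial total was 924686 to 1793310 counts in sham and 1031356, 605240, 26321 and 2743720 counts in stroke. Stroke replicate 3 stood apart. In it 91.2% of the nonzero values were below 0.5, against 0.56-2.76% in the 7 other libraries compared. The 8 microglial markers summed to 650 CPM there, with P2ry12, Sall1, Fcrls, Olfml3 and Gpr34 at 0, against 14157-17790 CPM in the other stroke libraries and 15843-20806 CPM in sham. The 8 monocyte markers summed to 827 CPM in that library (F10 and Fn1 at 0), to 27.0-379 CPM in the other stroke libraries and to 0-19.4 CPM in sham. Its 58 cells therefore went against their label. Many of the counts, medians and calls below, though not all, are also given without it. Of 133 called genes chosen for naming, 130 kept their call without it (Arntl, Per1 and Sf3b1 did not), none reversed, and the largest shift in log2 fold change was 0.48. Other cell markers were low throughout: neutrophil markers summed to 170-495 CPM in sham and 80.5-156 CPM in the other stroke libraries, and astrocyte markers to 174-203 and 43.1-69.4 CPM. The libraries also fell into 2 technical sets by the mitochondrial ribosomal RNA mt-Rnr2 over all cells, at most 529 CPM in sham 1 and stroke 1 and 2, and at least 15249 CPM in sham 2 to 4 and stroke 3 and 4.

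**Figure D1:**
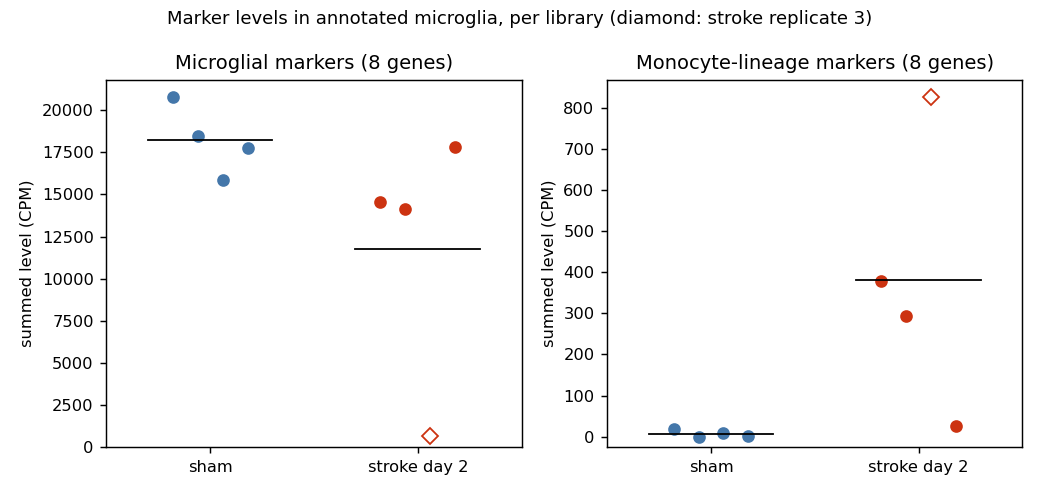
Summed level in CPM of the microglial markers (left) and of the monocyte-lineage markers (right) in each of the 4 sham and 4 stroke day 2 libraries. Each point is a library, lines are group means and the open diamond is stroke replicate 3. It lies away from the 7 other libraries, at 650 CPM of microglial and 827 CPM of monocyte markers.

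Of 10145 genes tested with edgeR's quasi-likelihood test, 3182 (31.4%) passed an adjusted p of 0.05, 1588 higher (15.7%) and 1594 lower (15.7%) in stroke. Without replicate 3 the numbers were 1604 of 11084 higher (14.5%) and 1447 lower (13.1%). That fit shared 1394 of the lower and 1422 of the higher calls. Of the 1594 falls, 1106 lay between 2-fold and 4-fold and 195 were larger, and of the 1588 rises 738 lay between 2-fold and 4-fold and 468 were larger. Within the technical sets, stroke 1 and 2 were compared with sham 1, and stroke 4 with sham 2 to 4, leaving out stroke replicate 3. Of the lower genes 93.5% were lower in both sets, beside 27.7% of all genes tested. Of the higher genes 95.4% were higher in both, beside 25.3%. These shares describe libraries from which the calls came and are no separate test. The 4 stroke libraries all lay below the 4 sham libraries in 19.1% of genes tested and all above them in 12.4%. These 2 shares are not alike in kind, since 1 count in stroke replicate 3 is about 29.5 CPM. The median level of genes tested was also 29.5 CPM, and a value of 0 there can lie below sham but never above it. The balance of the calls moved with the scaling, at 1273 higher and 2118 lower without TMM and 1224 and 2185 in DESeq2. The number of lower calls moved by over 1.5 times when sham replicate 3 (852), sham 4 (820), stroke 1 (940) or stroke 4 (947) was left out, and the total fell to 2094 without stroke 4. With cells that held a count of a proliferation gene left out, 717 genes were higher and 561 lower of 8628. Of the genes still tested, 1486 of the 1487 lower and 1332 of the 1349 higher kept their direction. Without these cells 40 of the 124 genes chosen for naming that were still tested lost their call, and none reversed. Such cells were 7.87-13.7% of sham microglia and 62.3%, 41.0%, 6.90% and 59.4% of stroke microglia. Leaving them out thus thinned stroke 1, 2 and 4 most and took only 4 of the 58 cells of replicate 3. Calls lost in this way, here and below, rest on fewer cells, and the reason for their loss was not tested.

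The surveying-state genes fell unevenly. Of 12 tested, 4 fell (33.3%, beside 15.7% of all genes) and none rose, with a median log2 fold change of -1.01 beside -0.05 over all genes tested. P2ry12, the ADP receptor that steers microglial processes toward injury, read 2965, 3289, 2796 and 2982 CPM in sham and 973, 997, 0 and 1426 CPM in stroke. All 4 stroke libraries were below all 4 sham libraries. Its log2 fold change was -1.76 ± 0.61 (SE, edgeR adjusted p = 0.0408) and -1.42 ± 0.28 without replicate 3 (adjusted p = 0.00392). Siglech, a sialic acid-binding receptor, read 2802, 2636, 2831 and 2772 CPM in sham and 1062, 1230.4, 148 and 676 CPM in stroke, again without overlap (log2 fold change -1.77 ± 0.43, adjusted p = 0.00801, and -1.50 ± 0.27 and 0.00237 without replicate 3). The purinergic receptor P2ry13 and the fructose transporter Slc2a5 also fell, by 1.09 and 1.06 on the log2 scale. With replicate 3 kept, the P2ry12 call was lost on leaving out any 1 of sham 1 to 4 or stroke 1 or 2 (edgeR adjusted p from 0.0578 to 0.0938). P2ry13 lost its call without any 1 of these 6 libraries or of stroke day 14 replicate 1 (0.0528 to 0.123), and Slc2a5 without sham 1, 3 or 4 or stroke 1 (0.0509 to 0.0977).

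Other genes of the same state did not pass. The fractalkine receptor Cx3cr1 read 4058, 2769, 3259 and 3295 CPM in sham and 1949, 2084, 0 and 1374 CPM in stroke, without overlap but with an adjusted p of 0.141 in edgeR, and with -0.90 ± 0.21 and an adjusted p of 0.00985 without replicate 3. Csf1r, the receptor on which microglial survival depends, gave 0.0833 and 0.0108 in these 2 fits. The Fc receptor-like gene Fcrls was higher in the 3 other stroke libraries (2796, 2500.4 and 2510.3 CPM) than in sham (1567-1766 CPM) and was listed at 0 in replicate 3. It was called higher without that library (log2 fold change 0.62 ± 0.19, adjusted p = 0.0314). Without replicate 3 the group had 6 lower and 1 higher call. The count of lower calls ranged from 1 to 6 over the fits that left out 1 library, at 1 without sham 1, sham 3, sham 4 or stroke 1 and at 2 without sham 2 or stroke 2. With cells that held a proliferation count left out no gene of the group was called (adjusted p of 0.245 for P2ry12 and 0.139 for Siglech, list median -0.68), and 2 were called when values were rounded up before summing.

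The share of cells with a count is given for P2ry12 and Siglech as a description, since both were chosen by their summed counts in the same cells. Each cell was thinned to 300 counts and shallower cells were left out. P2ry12 was then seen in 61.7%, 59.5%, 56.3% and 58.6% of sham microglia and in 26.7%, 27.1%, 0% and 34.5% of stroke microglia, the 0% resting on 21 cells. Siglech was seen in 60.7%, 53.9%, 57.4% and 58.1% against 27.2%, 32.2%, 4.36% and 20.3%. The groups did not overlap in either gene, and both genes were at 0% in endothelial cells of the same libraries. Without thinning, the stroke cells being deeper in 2 libraries, the shares were 71.3% ± 8.14 in sham and 41.3% ± 29.4 in stroke for P2ry12 (SD, n = 4 each) and 72.3% ± 6.40 and 38.2% ± 24.3 for Siglech.

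G protein-coupled receptors, through which microglia sense nucleotides, lipids and chemokines, mostly fell where they were called. Of 17 tested, 8 fell (47.1%) and 2 rose (11.8%, below the 15.7% of all genes), with a median log2 fold change of -0.78, and 9 fell and 2 rose without replicate 3 (median -0.68). Lpar6, a receptor for lysophosphatidic acid, read 374, 502, 552 and 524 CPM in sham and 107, 112, 29.5 and 135 CPM in stroke. The groups were far apart, with a log2 fold change of -2.14 ± 0.32 (adjusted p = 0.000393). Gpr155 fell by 1.49, the adhesion receptor Adgrg1 by 1.20 and the oxysterol receptor Gpr183 by 0.77 on the log2 scale. The 2 rises were of receptors for complement fragments. C5ar1 read 113, 52.7, 48.3 and 36.1 CPM in sham and 174, 188, 148 and 239 CPM in stroke (log2 fold change 1.62 ± 0.38, adjusted p = 0.00659), and C3ar1 rose by 0.95. C5ar1 was at 309 CPM in the pooled monocyte-derived cells of the stroke libraries. The lower calls numbered 2 without sham 3 or stroke 1, 4 without sham 1, sham 4 or stroke 2 and 5 without sham 2, and C3ar1 was not called without stroke 4. With cells that held a proliferation count left out 1 fell.

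Several receptors of the TGF-β family were called lower, with part of their signalling chain. Of 19 genes of TGF-β and bone morphogenetic protein (BMP) signalling, 7 fell (36.8%, beside 15.7% of all genes) and none rose. Their median log2 fold change was -0.75, and there were 7 falls and a median of -0.68 without replicate 3. Tgfbr1, the type I TGF-β receptor, read 935, 1094, 996 and 1243 CPM in sham and 336, 378, 29.5 and 291 CPM in stroke. No library of one group reached the other, and the log2 fold change was -1.90 ± 0.37 (adjusted p = 0.00255, and -1.69 ± 0.23 and 0.000514 without replicate 3). The activin receptor Acvr2b fell most, from 29.6, 65.6, 51.3 and 66.6 CPM to 4.75, 4.93, 0 and 5.23 CPM (log2 fold change -3.41 ± 0.63, adjusted p = 0.00175). Acvr2a (-1.38), the BMP receptor Bmpr2 (-1.52), the effector Smad1 (-1.39), the inhibitory Smad7 (-1.34) and the repressor Skil (-1.14) made up the rest. The Skil call was lost without sham 2, 3 or 4 or stroke 1 or 2 (edgeR adjusted p from 0.0612 to 0.133). Neither the ligand gene Tgfb1 nor Tgfbr2, Smad2, Smad3 or Smad4 passed the test. In endothelial cells of the same libraries 2 of 10 such genes tested fell, with a median of -0.36, beside a background of 376 of 5833 genes lower (6.45%), and without replicate 3 none of the 10 was called there (background 230 of 5831, 3.94%). The folds of the 2 genes moved little, from -1.09 to -1.03 for Smad7 (adjusted p = 0.0563) and from -0.85 to -0.82 for Bmpr2 (adjusted p = 0.086), and the endothelial median was -0.36 in both fits. The microglial list had 4 falls with cells that held a proliferation count left out.

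Transcription factors of the myeloid lineage gave 11 falls (55%, beside 15.7% of all genes) and no rise among 20 tested. Their median log2 fold change was -0.98, and there were 9 falls and a median of -0.92 without replicate 3. Mef2a, a MADS-box factor, read 702, 1152, 1433 and 1461 CPM in sham and 279, 372, 148 and 306 CPM in stroke (log2 fold change -2.03 ± 0.34, adjusted p = 0.00093). Its relative Mef2c read 834, 812, 1005 and 1010.1 CPM against 459, 497, 0 and 352 CPM (log2 fold change -1.34 ± 0.45, adjusted p = 0.0376). The groups did not overlap for either gene, but the Mef2c call was lost without sham 2, 3 or 4 or stroke 1 or 4 (adjusted p from 0.0642 to 0.102). Maf (-1.60), Nfatc2 (-1.34), Zeb2 (-1.20), Etv5 (-1.16), Elf1 (-1.01), Ets1 (-0.99), Fli1 (-0.76) and Runx1 (-0.72) fell as well. Sall1, a zinc finger factor that marks microglia among macrophages, read 256, 96.8, 106 and 118 CPM in sham and 106, 107, 0 and 33.8 CPM in stroke. Its groups overlapped and it did not pass (adjusted p = 0.129), though within each technical set every stroke library was below every sham library. Spi1, Irf8 and Cebpa did not pass either. The fits that left out 1 library gave 5 to 11 falls, at 5 without sham 3, 6 without sham 4 or stroke 1 and 7 without stroke 4, and there were 3 with cells that held a proliferation count left out.

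The glucocorticoid receptor and genes it is known to induce were among the most reduced. Nr3c1, which encodes the receptor, read 157, 359.9, 476 and 482 CPM in sham and 86.5, 102, 29.5 and 114 CPM in stroke. All stroke libraries were lower, with a log2 fold change of -1.95 ± 0.43 (adjusted p = 0.00507). Of 10 glucocorticoid-responsive genes tested, 8 fell (80%, beside 15.7% of all genes) and none rose. Their median of -2.05 was the lowest of the 32 lists described. The count was also 8 without replicate 3 and ranged from 5, without stroke 1, to 9, and 4 were called with cells that held a proliferation count left out. Sult1a1, a sulfotransferase, read 218, 383, 211 and 256 CPM in sham and 26.6, 46.1, 0 and 48.3 CPM in stroke (log2 fold change -2.79 ± 0.39, adjusted p = 0.000267, and -2.73 ± 0.38 and 0.000577 without replicate 3). The cell cycle inhibitor Cdkn1c read 41.9, 33.9, 39.4 and 31.2 CPM against 9.51, 1.64, 0 and 3.22 CPM (log2 fold change -2.92 ± 0.48, adjusted p = 0.000887). In both genes the highest stroke library stayed below the lowest sham library. Mertk, a receptor for the uptake of dying cells, read 644, 753, 1102 and 1071 CPM against 223, 378, 0 and 161 CPM (log2 fold change -2.04 ± 0.48, adjusted p = 0.00697). Pik3ip1 (-2.78), Errfi1 (-2.40), Ddit4 (-2.05), Tsc22d3, the gene of the anti-inflammatory protein GILZ, (-1.86) and Rhob (-1.70) completed the set. Rhob was not called without sham 3 or stroke 1 (edgeR adjusted p of 0.0502 and 0.0565). Fkbp5 and Sgk1 did not pass. Endothelial cells had 2 falls among 8 such genes tested (median -0.47), and 1 without replicate 3. Of all genes tested there 6.45% were lower, and 3.94% without replicate 3. The difference between the cell types was not tested.

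**Figure D2:**
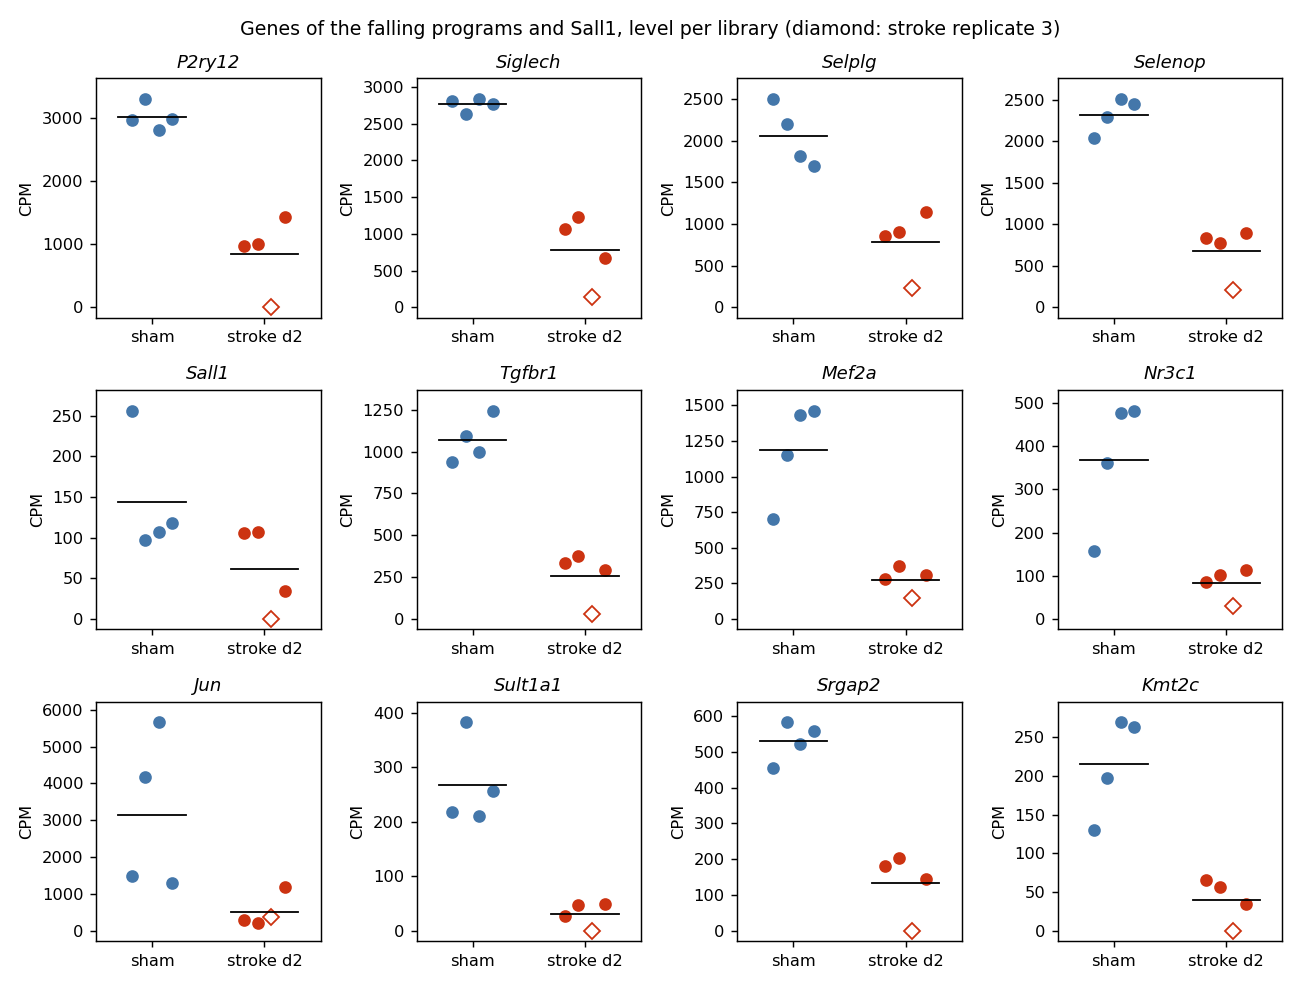
Level in CPM of 11 genes that fell and of Sall1 in each of the 4 sham and 4 stroke day 2 libraries, on linear axes. Each point is a library, lines are group means and the open diamond is stroke replicate 3. Sall1 overlaps between the groups, and Tgfbr1, at 935-1243 CPM in sham and at most 378 CPM in stroke, does not.

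Clock genes were scarce: 8 of 15 reached the test, 3 of them fell (Per1, Nr1d2 and Arntl) and none rose. The falls were 37.5% of those tested, beside 15.7% of all genes. Per1, a repressor of the circadian oscillator that glucocorticoids also induce, read 47.0, 56.5, 56.2 and 17.7 CPM in sham and 11.4, 13.2, 0 and 13.3 CPM in stroke, without overlap (log2 fold change -1.84 ± 0.62, adjusted p = 0.0372). Nr1d2, a haem-binding nuclear receptor, read 25.5, 16.7, 27.6 and 41.1 CPM against 9.51, 13.2, 0 and 5.64 CPM (log2 fold change -1.68 ± 0.45, adjusted p = 0.0132). Without replicate 3 only Nr1d2 was called, with adjusted p of 0.0565 for Per1 and 0.0768 for Arntl, and the count was 1 without sham 2, 3 or 4 or stroke 1 and 0 without stroke 4 or with cells that held a proliferation count left out. With the settings of the main fit, the Per1 call was lost on leaving out 1 of sham 1 to 3 or 1 of the 4 stroke libraries (edgeR adjusted p from 0.0565 to 0.114). Nr1d2 was lost without sham 4 or stroke 4 (0.0579 and 0.0641). Arntl overlapped between the groups (5.10-13.8 CPM in sham, 0-8.22 CPM in stroke) and lost its call in 10 of the 12 fits that left out a library (0.0572 to 0.203). The E-box CACGTG, the palindrome bound by the CLOCK and BMAL1 pair, was in 3 of the 7 clock gene promoters available, and in 12.6% of the 7360 promoters matched to genes tested, 11.3% of those lower and 12.03% of those higher. Promoters were the RefSeq (GRCm38.p6) bases from 250 before to 50 after a start, searched on both strands. The Per1 promoter is shown as the member called with such a match, 250 bases up to the transcription start (chr11:69098699-69098948, plus strand), with the E-box in capitals.
Per1: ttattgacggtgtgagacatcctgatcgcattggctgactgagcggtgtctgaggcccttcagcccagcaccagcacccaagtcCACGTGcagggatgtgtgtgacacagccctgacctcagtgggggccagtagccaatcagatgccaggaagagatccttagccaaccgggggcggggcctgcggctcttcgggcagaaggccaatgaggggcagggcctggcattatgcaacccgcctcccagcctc

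Some immediate early genes, which cells switch on within minutes of a stimulus or of handling, were called lower after stroke, but levels varied widely among sham libraries. Of 18 tested, 9 fell (50%, beside 15.7% of all genes) and none rose (median log2 fold change -1.57). Jun, a subunit of the AP-1 transcription factor, read 1475, 4182, 5660.4 and 1299 CPM in sham and 279, 196, 354 and 1191 CPM in stroke. The highest stroke library lay just under the lowest sham library (log2 fold change -2.61 ± 0.73, adjusted p = 0.0166). Klf4 read 56.1, 161, 299.7 and 36.8 CPM against 11.4, 18.1, 0 and 17.3 CPM (log2 fold change -3.17 ± 0.75, adjusted p = 0.00687). Fosb (-2.81), Egr1 (-2.49), Egr2 (-2.33), Klf2 (-2.10), Jund (-2.06), Ier5 (-1.56) and Klf6 (-1.43) were the others called. Fos read 518, 1827, 2565 and 312 CPM in sham and 133, 104, 532 and 800.1 CPM in stroke, with overlapping groups (adjusted p = 0.132). In both genes sham 2 and 3 were the highest libraries. The Jun call was lost without sham 3 or stroke 1 (edgeR adjusted p of 0.0681 and 0.0652). There were 6 falls without replicate 3, 3 without sham 3 or stroke 1 and 5 without stroke 2. With cells that held a proliferation count left out there was 1, and Jun was not called (edgeR adjusted p = 0.0806). Of the 18 genes 5 were lower in both technical sets, replicate 3 not used, near the 27.7% of all genes tested. After thinning, Jun was seen in 30.2%, 56.6%, 67.6% and 28.2% of sham and 8.76%, 6.62%, 21.4% and 26.3% of stroke microglia, given as a description, and in 20.0-43.7% and 11.3-20.0% of the endothelial cells. Jun fell in endothelial cells too (log2 fold change -1.46, adjusted p = 0.0179), with -1.42 and an adjusted p of 0.0527 without replicate 3.

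Regulators of small GTPases, which set the actin dynamics behind process movement, were lower as a group. Among 20 tested, 15 fell (75%, beside 15.7% of all genes) and none rose (median log2 fold change -1.14). Elmo1, which with Dock proteins activates Rac, read 256, 299.6, 326 and 422 CPM in sham and 108, 117, 0 and 90.2 CPM in stroke (log2 fold change -1.76 ± 0.35, adjusted p = 0.00263). Dock4 read 118, 113, 130.1 and 139.5 CPM against 44.7, 54.3, 0 and 36.6 CPM (log2 fold change -1.57 ± 0.28, adjusted p = 0.00129). Srgap2, a Rac-directed GTPase-activating protein, read 455, 583, 521 and 559 CPM against 181, 204, 0 and 145 CPM (log2 fold change -1.76 ± 0.36, adjusted p = 0.0033). None of these 3 genes had overlapping groups. Arhgap12 (-1.82), Arhgap5 (-1.73), Ralgps2 (-1.56), Dock10 (-1.54), Rapgef5 (-1.51) and Dock8 (-1.40) were the next in size. The count was 15 without replicate 3 and 9 without sham 3, sham 4 or stroke 1 or with cells that held a proliferation count left out. In endothelial cells 4 of 11 such genes fell (median -0.75), and 2 without replicate 3. The background there was 6.45% lower, and 3.94% without replicate 3.

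Genes of chromatin-modifying enzymes and co-regulators fell in 18 of 22 cases (81.8%, beside 15.7% of all genes), with no rise (median log2 fold change -1.48). The histone methyltransferase gene Kmt2c read 130.2, 197, 269 and 263 CPM in sham and 65.6, 55.9, 0 and 34.2 CPM in stroke (log2 fold change -2.15 ± 0.41, adjusted p = 0.00223). Its relative Kmt2a read 113, 141, 183 and 167 CPM against 58.0, 37.8, 29.5 and 24.2 CPM (log2 fold change -1.95 ± 0.39, adjusted p = 0.00288). Neither gene had overlapping groups. The demethylase Kdm6b (-2.33), the methyltransferases Ash1l (-1.90) and Setd2 (-1.76), the demethylase Kdm6a (-1.85), the DNA dioxygenase Tet3 (-1.69), the acetyltransferases Ep300 (-1.53) and Crebbp (-1.30) and the remodelling subunits Arid1b (-1.55) and Arid1a (-1.44) fell likewise. The co-repressor Ncor1, at -0.71, did not pass. When genes were ranked into quintiles by their longest transcript, all 22 members lay in the longest quintile, with a median of 10.2 kb. In endothelial cells 8 of 20 tested fell too (median -1.07, background 6.45% lower). The count was 17 without replicate 3, 10 without sham 3 or stroke 4, 11 without sham 4 and 8 with cells that held a proliferation count left out.

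Genes that FoxO factors induce, or that hold cells out of division, fell in 9 of 14 cases (64.3%, beside 15.7% of all genes) with no rise. Their median log2 fold change was -1.17. Without replicate 3, 10 fell, and 2 fell with cells that held a proliferation count left out. All 14 were lower in both technical sets, replicate 3 not used, beside 27.7% of all genes tested. Irs2, an adaptor of the insulin and IGF1 receptors, read 15.8, 31.7, 34.5 and 36.1 CPM in sham and 5.70, 8.22, 0 and 3.22 CPM in stroke (log2 fold change -2.52 ± 0.63, adjusted p = 0.00949). Txnip, an inhibitor of thioredoxin and of glucose uptake, read 537, 362, 429 and 198 CPM against 110.3, 125, 29.5 and 189.7 CPM (log2 fold change -1.54 ± 0.34, adjusted p = 0.00549). The groups did not overlap in either gene, though sham 4 and stroke 4 were close for Txnip, and Irs2 was not called without stroke 4 (adjusted p = 0.0525). The anti-proliferative genes Tob1 (-1.72), Tob2 (-1.65) and Btg1 (-1.33), the cyclin gene Ccng2 (-1.38) and the phosphoinositide 3-kinase subunit Pik3r1 (-1.40) fell with them.

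Of 17 channels and transporters tested, 6 fell (35.3%, beside 15.7% of all genes) and none rose (median log2 fold change -0.58). Abca9, a lipid transporter gene, read 281, 529, 536 and 519.9 CPM in sham and 111, 112, 0 and 81.3 CPM in stroke, without overlap (log2 fold change -2.33 ± 0.45, adjusted p = 0.00219). The inward rectifier potassium channel Kcnj2 fell by 1.58 and the channel kinase Trpm7 by 0.86 on the log2 scale. The count was 5 without replicate 3, 3 without sham 3, sham 4 or stroke 1 and 2 with cells that held a proliferation count left out.

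**Figure D3:**
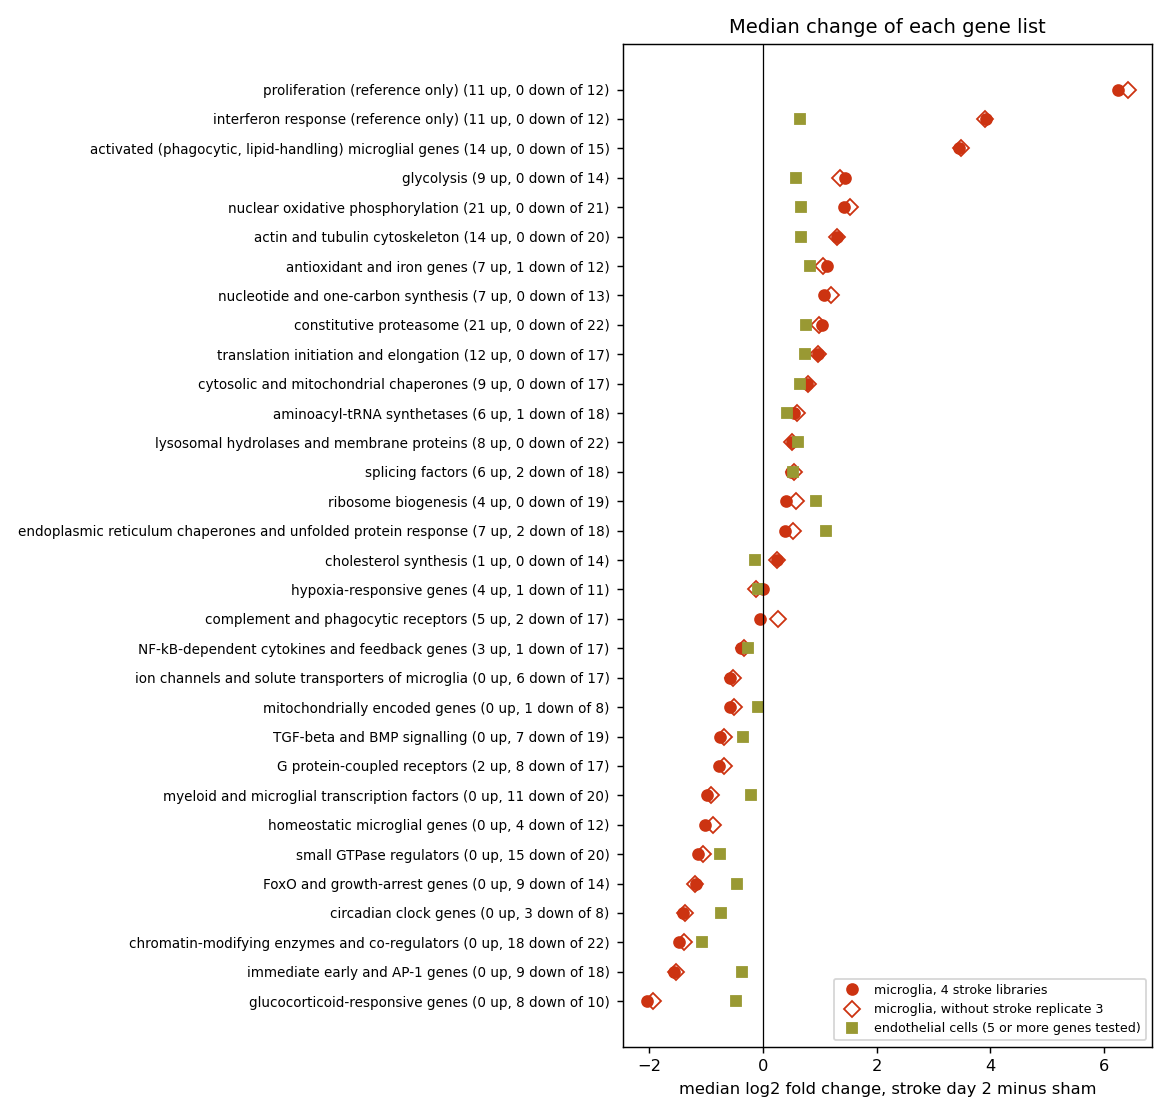
Median log2 fold change, stroke day 2 minus sham, of the tested members of each gene list, with the numbers called higher and lower beside its name. Circles are microglia, diamonds microglia without stroke replicate 3 and squares endothelial cells of the same libraries, for lists with 5 or more genes tested there. The chromatin list (median -1.48) and the glucocorticoid list (median -2.05) lie below 0, and the proteasome (1.04) and nuclear oxidative phosphorylation lists (1.43) above it.

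Outside the lists, the genes with the largest falls at 50 CPM or more included several regulators. Macf1, a giant linker of actin and microtubules, read 372, 1103, 1395 and 1472 CPM in sham and 199.6, 202, 29.5 and 207 CPM in stroke (log2 fold change -2.59 ± 0.53, adjusted p = 0.00325). The microtubule-binding protein gene Clasp2 read 70.4, 193, 219.8 and 256 CPM against 47.5, 24.7, 59.1 and 36.6 CPM (log2 fold change -2.28 ± 0.48, adjusted p = 0.00411). In both genes sham 1 was the lowest sham library and still above every stroke library. Matk, a kinase that inhibits Src-family kinases, read 124, 111, 152 and 160.1 CPM against 25.7, 23.0, 0 and 20.9 CPM (log2 fold change -2.61 ± 0.32, adjusted p = 0.000103). Nrip1, a co-repressor of nuclear receptors, fell by 2.47, the translation inhibitor Pdcd4 by 2.27, Narf by 2.27 and the zinc finger factor Rreb1 by 2.26 on the log2 scale. Among abundant genes, the selenium carrier Selenop read 2038, 2290.5, 2507 and 2455 CPM in sham and 831, 773, 207 and 889.9 CPM in stroke (log2 fold change -1.73 ± 0.37, adjusted p = 0.00416). Selplg, the P-selectin ligand, fell by 1.33, Rnase4, which shares its locus with Ang and is therefore uncertain, by 1.29, the protein kinase C substrate Marcks by 1.24 and the RNA helicase Ddx5 by 0.87. Marcks lost its call in 8 of the 12 fits that left out a library (edgeR adjusted p from 0.0512 to 0.124), and Ddx5 without stroke 1 (0.0536). All 7 genes named in this paragraph with a log2 fold change below -2.2 kept their call without replicate 3.

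Of the lists with rises, proliferation and interferon genes had the highest medians (6.25 and 3.93), with 11 of 12 called in each. Spp1, the secreted phosphoprotein osteopontin, went from 0-4.08 CPM in sham to 8228, 8411, 9718 and 18929 CPM in stroke. The lists described next cover energy metabolism, protein turnover, the cytoskeleton, lysosomes and defence against oxidants. Their counts of rises stand beside 15.7% of all genes tested, and 14.5% without replicate 3. Without replicate 3 the rises numbered 9 of 14 for glycolysis, 12 of 17 for translation factors, 8 of 17 for chaperones, 9 of 18 for the endoplasmic reticulum, 14 of 20 for the cytoskeleton and 14 of 15 for the phagocytic, lipid-handling genes.

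Every one of 21 tested nuclear genes for oxidative phosphorylation rose (median log2 fold change 1.43), and 20 did so without replicate 3. Uqcrq, a complex III subunit, read 171, 173, 135 and 133 CPM in sham and 443, 519.8, 679 and 759.9 CPM in stroke (log2 fold change 1.96 ± 0.24, adjusted p = 0.000106). Cox6a1, a complex IV subunit, read 276, 299, 188 and 206 CPM against 664, 693, 945 and 996 CPM (log2 fold change 1.75 ± 0.24, adjusted p = 0.000216). Every stroke library was above every sham library for both. Ndufa4 (2.04), Cox5a (2.03), Cox5b (1.80) and Ndufb2 (1.76) rose by similar amounts. Transcripts of the mitochondrial genome did not follow: of 8 tested none rose and 1 fell (12.5%, below the 15.7% of all genes). The fall was of mt-Nd3 (log2 fold change -1.70 ± 0.41, edgeR adjusted p = 0.00822). The list median was -0.59, and -0.51 without replicate 3. It was -0.33 without replicate 3 and with the technical set, itself defined by a mitochondrial transcript, as a term. Of the nuclear genes 16 lay in the shortest quintile of transcripts, 9 of 21 also rose in endothelial cells (median 0.68, background 6.89% higher), 6 of them without replicate 3 (background 4.82%), and many have processed pseudogene copies, so their counts are uncertain.

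The letters GCATGCGC, part of the motif of nuclear respiratory factor 1, were in 4 of 15 of these promoters (26.7%) and in 6.81% of all 7360, 7.76% of those of higher and 6.49% of those of lower genes. The cyclic AMP element TGACGTCA was in 3 of 15 (20.0%) and in 3.87% of all. The promoters of Cox6a1 (chr5:115348959-115349208, minus strand) and of Cycs, the cytochrome c gene (chr6:50566570-50566819, minus strand), are shown as members that rose and hold a match, with matches in capitals. Cycs was chosen after its values were seen. In Cox6a1 a match on each strand overlaps the other, and Cycs holds both motifs.
Cox6a1: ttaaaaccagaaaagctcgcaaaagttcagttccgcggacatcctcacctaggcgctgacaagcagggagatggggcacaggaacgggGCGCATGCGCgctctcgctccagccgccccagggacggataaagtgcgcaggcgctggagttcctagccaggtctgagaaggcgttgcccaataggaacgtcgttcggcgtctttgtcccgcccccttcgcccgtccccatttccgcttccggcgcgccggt
Cycs: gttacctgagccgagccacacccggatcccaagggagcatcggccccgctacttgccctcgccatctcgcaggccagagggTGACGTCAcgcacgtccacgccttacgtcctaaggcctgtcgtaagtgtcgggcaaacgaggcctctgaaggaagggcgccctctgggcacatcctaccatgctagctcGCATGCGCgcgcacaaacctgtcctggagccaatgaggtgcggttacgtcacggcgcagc

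Cycs itself read 13.8, 64.6, 61.1 and 58.8 CPM in sham and 121, 132, 29.5 and 182 CPM in stroke, with replicate 3 inside the sham range (log2 fold change 1.43 ± 0.45, adjusted p = 0.029, and 0.103 without stroke 4). No motif match here says that a factor was bound, and for the motifs named the shares among higher and lower genes were close to that of all promoters. Among other motifs searched, CCGGAAGT was in 7.55% of promoters of lower genes, 11.3% of higher and 10.8% of all. The letters GAAANNGAA, with N any base, were in 8.77%, 11.3% and 9.05%. These differences were not tested.

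Glycolytic genes rose in 9 of 14 cases (64.3%, beside 15.7% of all genes) with no fall (median log2 fold change 1.44). Pkm, the last enzyme of glycolysis, read 139, 93.6, 90.7 and 113 CPM in sham and 836, 627, 1122 and 1065 CPM in stroke (log2 fold change 3.04 ± 0.30, adjusted p = 2.15e-05). Pgk1 rose from 12.3, 17.8, 16.8 and 19.1 CPM to 133, 59.2, 88.6 and 90.2 CPM, and the lactate dehydrogenase gene Ldha from 107, 127, 119 and 97.0 CPM to 455, 311, 945 and 714 CPM. No groups overlapped in these 3 genes. The lactate exporter Slc16a3 (2.09), Tpi1 (1.82), Aldoa (1.69) and Eno1 (1.60) rose too. Hypoxia-responsive genes gave 4 rises (36.4%) and 1 fall (9.09%, below the 15.7% of all genes) among 11, the fall not called without replicate 3. The lipid droplet protein gene Plin2 rose from 15.3-28.6 CPM to 244, 219, 709 and 431 CPM. The count of rises was 1 without sham 1 or stroke 4 and 2 without sham 2.

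The constitutive proteasome rose in 21 of 22 subunits (median log2 fold change 1.04), in 21 also without replicate 3 and in 14 with cells that held a proliferation count left out. Psmb6, a catalytic subunit, read 169, 182, 159 and 151 CPM in sham and 417, 454, 679 and 569 CPM in stroke (log2 fold change 1.64 ± 0.22, adjusted p = 0.000198). Psma7, a subunit of the outer ring of the core, moved less, from 270.0, 361, 362 and 317 CPM to 528, 577, 473 and 525 CPM (log2 fold change 0.69 ± 0.20, adjusted p = 0.0197). Neither gene had overlapping groups, and Psma7 was not called without sham 1 or stroke 2 or 4 (adjusted p from 0.0512 to 0.0542), with cells that held a proliferation count left out (0.0984) or with values rounded up (0.236). In endothelial cells 10 of the 22 rose (median 0.76, background 6.89% higher), and 8 without replicate 3 (background 4.82%). Of the cytosolic and mitochondrial chaperones 9 of 17 rose (52.9%, beside 15.7% of all genes), all 8 tested subunits of the chaperonin that folds actin and tubulin (Tcp1, Cct2, Cct3, Cct4, Cct5, Cct6a, Cct7 and Cct8) and Hspe1, whereas Hspa8 (0.08) and Hsp90ab1 (0.09) did not pass. In endothelial cells 7 of the 17 chaperones rose and none fell, and 5 rose without replicate 3.

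Translation factors rose in 12 of 17 cases (median log2 fold change 0.97), and in 6 with cells that held a proliferation count left out. Eif5a, which helps ribosomes past stalling sequences, read 159, 216, 127 and 141 CPM in sham and 532, 408, 709 and 819 CPM in stroke (log2 fold change 1.92 ± 0.27, adjusted p = 0.000281). Ribosomal protein genes, which have many pseudogene copies and are uncertain, rose in 35 of 83 cases with no fall (median 0.97). Of 19 ribosome biogenesis genes 4 rose (21.1%, near the 15.7% of all genes), led by Nhp2, a component of box H/ACA particles (37.8, 45.2, 43.4 and 32.6 CPM against 146, 138, 148 and 216 CPM). Aminoacyl-tRNA synthetases gave 6 rises (33.3%) and 1 fall (5.56%, below the 15.7% of all genes) among 18. Nars fell from 363, 754, 895 and 968 CPM to 348, 377, 207 and 369 CPM, but sham 1 lay within the stroke range and the call was lost with the technical set as a term and without sham 3 or 4 or stroke 1 or 4. Rises in this list numbered 2 without sham 2 and 3 without stroke 4, and no member was called with cells that held a proliferation count left out. Of 18 splicing genes 6 rose (33.3%) and 2 fell (11.1%, below the 15.7% of all genes), with a median of 0.49. The rises, by 1.04 to 1.81, were of the small ribonucleoprotein genes Snrpb, Snrpd1, Snrpd2, Snrpe, Snrpf and Lsm4, while Snrpa (0.51, adjusted p = 0.0971) did not pass. Srsf5 and Sf3b1 fell, by 1.53 and 0.91, and 9 others, among them Srsf3 (0.02) and Hnrnpa2b1 (0.17), did not pass. With the settings of the main fit, the Sf3b1 call was lost on leaving out 1 of sham 2 to 4 or of stroke 1 to 3 (edgeR adjusted p from 0.0579 to 0.143). In endothelial cells 8 of 16 translation factors, 8 of 16 ribosome biogenesis genes and 5 of 18 splicing genes rose. None of them fell there, no synthetase of 15 tested was called, and the background was 6.89% higher. Without replicate 3 the rises were 4 of 16, 8 of 17 and 5 of 18 (background 4.82%).

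The endoplasmic reticulum list gave 7 rises (38.9%) and 2 falls (11.1%, below the 15.7% of all genes) among 18. Sdf2l1, a co-chaperone, rose from 141, 105, 67.0 and 80.7 CPM to 357, 243, 177 and 419 CPM, and Sec61b, Manf, Creld2, Pdia6, Dnajb11 and Pdia4 rose by 0.79 to 1.63 on the log2 scale. Ddit3, the factor CHOP, read 164, 283, 331 and 162 CPM in sham and 51.3, 42.8, 59.1 and 99.9 CPM in stroke (log2 fold change -1.84 ± 0.34, adjusted p = 0.00174), and Dnajb9 fell by 1.51. The Dnajb9 call was lost with cells that held a proliferation count left out (adjusted p = 0.071). In endothelial cells 11 of 16 such genes rose and none fell (median 1.11, background 6.89% higher), with Ddit3 at -0.34 (adjusted p = 0.633).

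Genes of nucleotide synthesis and of the serine and one-carbon synthesis that feeds it gave 7 rises and no fall among 13. The rises were of the serine and one-carbon genes Psat1, Phgdh, Psph, Shmt2 and Mthfd2 and of the purine gene Paics and the pyrimidine gene Umps. Psat1, a serine synthesis enzyme, read 13.8, 12.9, 10.8 and 10.6 CPM in sham and 157, 95.4, 29.5 and 247 CPM in stroke (log2 fold change 3.64 ± 0.38, adjusted p = 3.06e-05). The pooled monocyte-derived cells of the stroke libraries held 9.16 CPM of it. Phgdh (1.45) and the mitochondrial Shmt2 (2.36) rose as well, both listed at 0 in replicate 3. With cells that held a proliferation count left out, 1 gene of this list was called. Cholesterol synthesis had 1 called rise, of Fdps, among 14, below the background share, and that call was lost without sham 2, 3 or 4 or stroke 4. The list median was 0.26. Its genes were scarce, and their summed level was 153-164 CPM in sham, 201-221 CPM in stroke 1, 2 and 4 and 266 CPM in replicate 3.

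**Figure D4:**
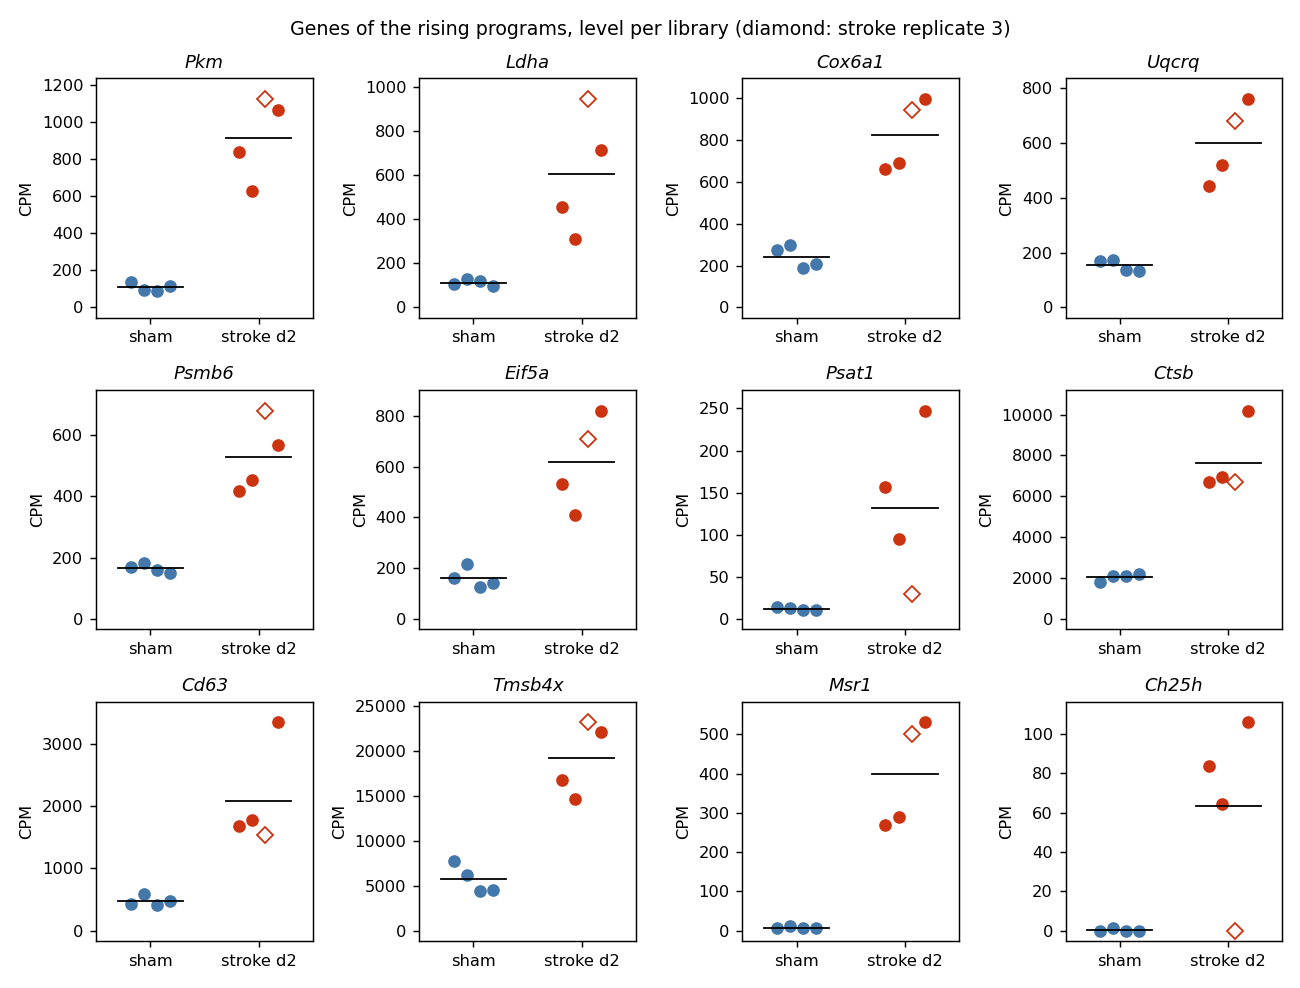
Level in CPM of 12 genes that rose in each of the 4 sham and 4 stroke day 2 libraries, on linear axes. Each point is a library, lines are group means and the open diamond is stroke replicate 3. Pkm, at 90.7-139 CPM in sham and 627-1122 CPM in stroke, does not overlap, while Ch25h overlaps through replicate 3.

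Cytoskeletal genes rose in 14 of 20 cases, with no fall. Tmsb4x, the actin-sequestering thymosin β4, read 7759.8, 6174, 4431 and 4459.6 CPM in sham and 16726, 14635, 23159 and 22084 CPM in stroke (log2 fold change 1.75 ± 0.35, adjusted p = 0.00295). Actb rose from 6498, 7547, 6193 and 5038 CPM to 13639, 11831, 13677 and 14778 CPM (log2 fold change 1.09 ± 0.28, adjusted p = 0.0115). Each stroke library exceeded each sham library in both. With values rounded up before summing there were 9 rises, and Tmsb4x (adjusted p = 0.14) and Actb (0.366) were not called. Vim (6.39), Capg (4.17), Tubb6 (3.30), Ezr (3.19) and Tubb5 (2.53) rose more. Lgals1, at 0-5.61 CPM in sham, read 333, 360.2, 975 and 479 CPM in stroke and 2164 CPM in the pooled monocyte-derived cells. In endothelial cells 9 of 19 cytoskeletal genes tested rose and none fell (median 0.67, background 6.89% higher).

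Lysosomal genes gave 8 rises (36.4%, beside 15.7% of all genes) and no fall among 22. The protease gene Ctsb read 1829, 2124, 2079 and 2203 CPM in sham and 6711, 6930.3, 6705 and 10181 CPM in stroke (log2 fold change 1.89 ± 0.30, adjusted p = 0.000736). The membrane protein gene Cd63 read 423, 583, 415 and 469.6 CPM against 1681, 1782, 1536 and 3343 CPM (log2 fold change 2.15 ± 0.32, adjusted p = 0.000397). Both groups stayed apart in these genes, and stroke 4 was the highest library. The protease gene Ctss did not pass (log2 fold change -0.40 ± 0.29, adjusted p = 0.298), and DESeq2 called 3 lysosomal genes lower. There were 5 rises without stroke 4, 10 without replicate 3 and 4, without Ctsb (adjusted p = 0.0641), with values rounded up.

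Among 17 complement and phagocytic genes 5 rose (29.4%) and 2 fell (11.8%, below the 15.7% of all genes), with a median log2 fold change of -0.06 and of 0.27 without replicate 3. The scavenger receptor genes Msr1 and Cd36 rose, Msr1 from 5.61, 12.4, 5.91 and 6.37 CPM to 270.0, 289.5, 502 and 531 CPM and Cd36 from at most 1.97 CPM to 47.5, 44.4, 29.5 and 33.4 CPM. The receptor kinase Axl (3.45), Fcgr1 (0.79) and Itgb2 (0.75) rose, while Mertk, of the same kinase family as Axl, and the sialic acid receptor Cd33 (-1.10) fell. C1qb, a subunit of the complement initiator, overlapped between the groups (log2 fold change -0.04, adjusted p = 0.96). In the stroke libraries Msr1 was at 608 CPM in the pooled monocyte-derived cells and at 671 CPM in the pooled border-associated macrophages, and Cd36 at 47.2 and 445 CPM. The border-associated macrophage markers summed to 26.2-36.5 CPM in sham microglia, to 15.3-122 CPM in stroke 1, 2 and 4 and to 148 CPM in replicate 3. These sums and the monocyte marker sums given above move with these rises, and their part in the result was not tested. Without stroke 4 there were 3 rises, with cells that held a proliferation count left out there were 1 rise and no fall, and Cd33 was not called without sham 1, stroke 1 or stroke 4 (edgeR adjusted p from 0.0601 to 0.0768).

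Genes known from phagocytic, lipid-handling microglia rose in 14 of 15 cases (median log2 fold change 3.45). Fabp5, a fatty acid carrier, read 1.02, 3.77, 5.91 and 0.708 CPM in sham and 94.1, 97.1, 207 and 116 CPM in stroke (log2 fold change 5.36 ± 0.47, adjusted p = 1.37e-05). Cst7, a cysteine protease inhibitor, read 8.17, 22.6, 12.8 and 13.5 CPM against 194, 209, 29.5 and 310.5 CPM (log2 fold change 3.86 ± 0.45, adjusted p = 7.15e-05). Neither overlapped, and they differed in the monocyte-derived cells, at 1094 CPM for Fabp5 and 6.95 CPM for Cst7. Ch25h, the enzyme of 25-hydroxycholesterol, was at 0 in 3 sham libraries and 1.08 CPM in the other, and at 83.7, 64.2, 0 and 106 CPM in stroke, with 1.35 CPM in the monocyte-derived cells. Apoe read 877, 1284, 656 and 769 CPM in sham and 1939, 1785, 4785 and 859 CPM in stroke, highest in replicate 3. It did not pass (log2 fold change 1.36 ± 0.50, edgeR adjusted p = 0.0536), and its value was 0.75 ± 0.35 without that library (adjusted p = 0.126). With the technical set as a term Apoe passed (1.40 ± 0.50, edgeR adjusted p = 0.0444), but not when replicate 3 was also left out (0.63 ± 0.38, adjusted p = 0.235).

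Antioxidant and iron genes gave 7 rises (58.3%) and 1 fall (8.33%, below the 15.7% of all genes) among 12. Prdx1, a peroxiredoxin, read 166, 219, 146 and 160.1 CPM in sham and 713, 625, 1684 and 993 CPM in stroke (log2 fold change 2.48 ± 0.33, adjusted p = 0.000192), and the thioredoxin gene Txn1 rose by 2.59. Ferritin heavy chain Fth1 rose from 2798, 4301, 4422 and 3080.5 CPM to 6390.4, 8863, 20146 and 9559.6 CPM. The iron exporter Slc40a1 was the fall, from 108, 123, 119 and 135 CPM to 35.2, 41.1, 0 and 37.4 CPM (log2 fold change -1.76 ± 0.33, adjusted p = 0.00206). It fell in endothelial cells as well (log2 fold change -1.01, adjusted p = 0.0222). Of 10 such genes tested there 6 rose and 2 fell, beside a background of 6.89% higher and 6.45% lower. Among those rises were Prdx1 (1.14) and Txn1 (1.19). In microglia Fth1 was not called with values rounded up before summing (adjusted p = 0.18). Genes that NF-κB is known to drive showed no common movement, with 3 rises (Ccl2, Ccl5 and Cxcl10) among 17 (17.6%, near the 15.7% of all genes), 1 fall (5.88%, below it) and a median of -0.39. The fall was of Nfkb1, which encodes an NF-κB subunit (log2 fold change -1.12 ± 0.31, adjusted p = 0.0145). It was lost without sham 4 or stroke 4 (0.0671 and 0.0578).

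The direction of change was graded by transcript length, a pattern examined after the lists had been seen. Genes were divided into quintiles by their longest annotated transcript (GENCODE M21). From the shortest to the longest quintile, 3.96%, 9.01%, 13.5%, 20.2% and 31.8% of genes were lower, against 15.7% of all genes tested, and 28.2%, 21.8%, 13.4%, 9.50% and 5.39% were higher. The median log2 fold change was 1.01 in the shortest and -0.70 in the longest quintile, and 0.99 and -0.65 without replicate 3. Lower genes had a median longest transcript of 4.55 kb and higher genes of 2.04 kb, beside 3.12 kb over all genes tested.

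The share of counts in the longest quintile restates this pattern per library, from the same summed counts, and is given for microglia as a description with no test. The longest quintile took 16.4%, 16.4%, 19.4% and 20.2% of microglial counts in sham and 12.3%, 12.3%, 6.76% and 8.90% in stroke (18.1% ± 1.98 against 10.1% ± 2.71, SD, n = 4 each), without overlap. Without replicate 3 the stroke value was 11.2% ± 1.95 (n = 3). In endothelial cells of the same libraries the values were 18.8% ± 1.43 and 12.5% ± 1.48 (exact two-sided permutation p = 0.0286, the smallest possible). The microglial minus the endothelial share changed by -1.72 percentage points, which did not pass (exact permutation p = 0.171). That value moved with the libraries and genes used, at -2.47 (exact permutation p = 0.0286) without stroke 2 and -0.74 (exact p = 0.343) without replicate 3, and it was -0.89 (exact p = 0.657) with ribosomal protein and mitochondrial genes left out. Of the genes lower in microglia, 882 were tested in endothelial cells, where 158 were lower, 7 higher and the median was -0.58, and 89 of 885 were lower without replicate 3. Of those higher, 1014 were tested, with 268 higher, 2 lower and a median of 0.61, and 185 of 1015 were higher without replicate 3. The median over all 5232 genes tested in both was 0.04. Lists made of long transcripts, such as the chromatin enzymes, and of short ones, such as oxidative phosphorylation, had medians in the direction of their length class. The mitochondrially encoded list, with 7 of 8 members in the shortest quintile, had a median of -0.59. That median was -0.33 without replicate 3 and with the technical set as a term. The glucocorticoid list, at a median of 2.72 kb with none of its 10 members in the longest quintile, fell with the longer genes. The longest quintile also held 11 of 19 TGF-β and BMP genes and 12 of 20 transcription factors. It held 11 of 20 GTPase regulators and 7 of 14 FoxO and growth-arrest genes. In that order 36.8%, 55%, 75% and 64.3% of these lists were lower, beside 31.8% of the longest quintile. The TGF-β and BMP median of -0.75 was near the -0.70 of that quintile.

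**Figure D5:**
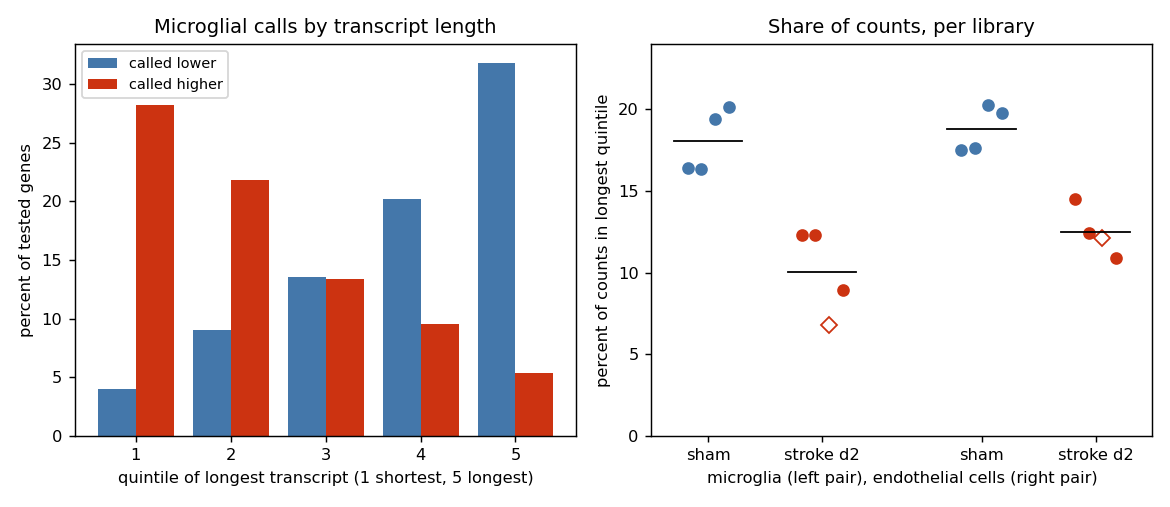
Left, percent of tested genes called lower and higher in each quintile of longest transcript length, from shortest to longest. Right, percent of counts in the longest quintile per library, in microglia and endothelial cells of the 4 sham and 4 stroke day 2 libraries, with lines at group means and an open diamond for stroke replicate 3. Lower calls go from 3.96% to 31.8% and higher calls from 28.2% to 5.39%.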

How the data were processed

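Brain cells of 4 sham day 2 and 4 stroke day 2 libraries of young mice were analysed, with 4 stroke day 14 libraries in the fit only. The deposited values are estimated counts in fractional form, made by the authors by a step that is not given in the sources used here. For edgeR they were summed per library over cells annotated as microglia and rounded. The authors also deposited the percent of mitochondrial counts per cell. The submitters' processing notes name mm10 and Seurat. No doublet caller was run.

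edgeR 4.0.16 (R 4.3.3) was fitted with TMM and filterByExpr over the 12 libraries, and p-values were adjusted by Benjamini-Hochberg over all genes tested, with calls at 0.05. Standard errors were the log2 fold change divided by the square root of F. A library is a pool of hemispheres, and nothing in the labels ties replicate numbers to a batch. Shares of cells and of counts were compared by exact two-sided permutation tests in scipy 1.17.1. The endothelial fit used the same settings. The script for the fit was tested on simulated data. Alternatives were DESeq2 1.42.0, no TMM, no filter, other cell filters, a replicate block and each library left out. A term for the technical set, with and without stroke replicate 3, and the analysis by transcript length were added after seeing the data, and a batch from the deposited metadata was not run because they name none.

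The members and the gene lists were chosen with earlier results of these data known, so the lists carry no test of their own and are described by counts and medians. Genes named were, among called genes with at least 50 CPM over the 8 libraries, without overlap between groups and not held at over 10 times the microglial level by another cell type of at least 500 cells, the 12 with the lowest and 8 with the highest log2 fold change and the 8 lower genes with the highest sham level. In each list at most 4 members were taken, the 2 with the highest level and the 2 others with the smallest p. A few list members are counted but not reported here by name. Other list members are named to show what a count covers, and Cycs, Fcrls and other members with values were chosen after their values were seen.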

Additional observations from a re-analysis of the deposited data

Results flagged for a closer look

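A value was listed where a group's highest or lowest library lay farther from the other libraries than Dixon's 95% critical value for 4 libraries allows. Chance flags about 1 in 20 groups where values are normally spread, and 28 of 238 groups checked were flagged. That rate does not hold for low counts. A group whose other libraries are all at 0 is always flagged, as were Ch25h and the T cell markers in sham. Stroke replicate 3 was the distant library for the share of values below 0.5 (91.2%), for Fcrls, Acvr2b, Per1 and Slc40a1 (each at 0 CPM), for Macf1 (29.5 CPM, lowest), Narf (29.5 CPM, highest), Nars and Selenop (each 207 CPM, lowest) and Fdps (88.6 CPM, highest). Stroke replicate 4 was the highest for Jun (1191 CPM), Cd63 (3343 CPM), Ctsb (10181 CPM), Nhp2 (216 CPM) and Spp1 (18929 CPM).

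Sham replicate 1 was the lowest for Abca9 (281 CPM), Nrip1 (168 CPM) and Cycs (13.8 CPM), and the highest for Cd33 (443 CPM), Sall1 (256 CPM), Slc2a5 (221 CPM) and Shmt2 (17.9 CPM). It was also the highest for the summed markers of neutrophils (495 CPM), dendritic cells (7.15 CPM) and T cells (1.53 CPM). Sham replicate 2 was the highest for Msr1 (12.4 CPM) and Ch25h (1.08 CPM), and sham replicate 4 for the share of microglia among cells (81.5%).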

How the results depend on the processing

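Against 3182 called genes, 1588 higher and 1594 lower, the number was 1278 (717 and 561) with cells that held a proliferation count left out. DESeq2 gave 3409, the fit without TMM 3391, and with the technical set as a term it was 3449. Leaving out single libraries gave 2094-3524 called genes, 1147-1871 higher and 820-1653 lower. Scaling shifted the whole distribution, from a median of -0.05 to -0.22 without TMM and to -0.28 in DESeq2 (log2). Same-numbered sham and stroke libraries did not deviate together (correlations of 0.04, -0.29, -0.03 and 0.07), so the numbers were not taken as pairs, and a replicate block gave 3129 called genes, 1556 higher and 1573 lower. Of the 32 gene lists, 30-32 kept the sign of their median over the fits without a library.

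The shares of cells with a count belong to genes chosen by their summed counts in the same cells, so their test restates that choice. Thinned, each of Jun, P2ry12 and Siglech gave an exact permutation p of 0.0286, but for Jun it was 0.0571 without sham 3 and 0.0857 to 0.114 without any 1 of the stroke libraries. Without thinning the differences were -27.7 percentage points for Jun, -30.1 for P2ry12 and -34.1 for Siglech, and none passed after adjustment over the 3 genes. Siglech had an exact permutation p of 0.0286, the smallest possible, and 0.0857 after adjustment, so alone it could not have passed. With single libraries left out the differences were -35.7 to -22.6, -41.1 to -29.6 and -40.2 to -30.9 points. Of the named called genes, none reversed under any setting run. The most calls were lost with cells that held a proliferation count left out, 40 of 124 tested, among them P2ry12, Siglech, P2ry13, Slc2a5, Jun, Mef2c, Maf, Mertk, Per1, Nr1d2, Irs2, Txnip, Axl, Cd33, Phgdh and Shmt2. Rounding values up lost 14 of 133 (Actb, Cd9, Cox4i1, Ctsb, Cycs, Eef1b2, Fth1, Ftl1, Marcks, Per1, Psma7, Siglech, Slc2a5 and Tmsb4x), leaving out single libraries 1 to 16 of 133, and no filter on low counts 6. DESeq2 did not call Cycs, Ero1l, Fdps, Hif1a and Psma7, and P2ry13 lost its call under the replicate block. Depth limited replicate 3 most, where 1 count is about 29.5 CPM. The p-values measure the spread between pooled libraries.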
